A study of Mus musculus with 6 samples.

Results

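The genes described here carry the signal from growth factor receptors through phosphoinositide 3-kinase (PI3K) and the kinase Akt to mTOR: PI3K subunits, adaptors, lipid phosphatases, Akt and its regulators, the Tsc and mTOR complexes and their effectors. They form a written list of 38 genes, chosen by pathway role but with earlier results of these data known. Each was read on the probe sets that the array's annotation assigns to that gene alone. Of the 38 genes, 37 had such a probe set and 33 had at least 1 bright enough to be tested, out of 10496 tested genes in all. Their RNA was read on Affymetrix arrays, 3 per genotype, from mouse embryonic stem cells of 2 kinds. One group was wild-type cells of the line E14K. The other, here DKO, is labelled Gsk-3a-/-; Gsk-3b-/-, that is, mutant on both alleles of each gene for the kinase Gsk-3. Both were kept off feeders on gelatin. Their medium held leukaemia inhibitory factor at 1000 units/ml and 15% fetal bovine serum, so all cells were compared with growth factors present. How many clones the DKO cells came from, and whether each replicate was its own culture, is not in the labels, and the spread behind the p-values may be only technical. The series asks which transcripts depend on Gsk-3, and its title places Gsk-3 downstream of PI3K.

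When a receptor for insulin or another growth factor is active, class I PI3K adds a phosphate to a lipid of the plasma membrane, and the product recruits Akt and its activating kinase PDK1. Akt phosphorylates and inhibits Gsk-3, and it releases mTOR complex 1 by inhibiting the Tsc1-Tsc2 complex, which otherwise keeps the small GTPase Rheb inactive. Embryonic stem cells also express Eras, a Ras protein that is constitutively active and binds PI3K. Gsk-3 in turn is known to phosphorylate several proteins of this pathway, among them Tsc2, but those are changes of protein and were not measured here.

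None of the 33 tested genes passed the comparison of DKO with wild-type cells (limma, Benjamini-Hochberg adjusted p under 0.05 over all tested probe sets), where 4.13% of all tested genes passed. The same held for all 57 of their tested probe sets, where 3.24% of all tested probe sets passed. At an unadjusted p under 0.05 there were 6 (18.2%), where 14.7% of all tested genes stood. The largest differences were those of Pik3r3, a regulatory subunit of PI3K that read 2.31-fold higher in DKO, and Eras, which read 2.13-fold lower. When the replicate number was entered as a block, which compares same-numbered arrays with each other, Pik3r3, Eras and Mlst8, a subunit of both mTOR complexes, passed. That is 3 of 33 genes (9.09%), where 10.7% of all tested genes passed with the block, so the share lay near the background. By direction these were 2 genes that passed higher in DKO (5.07% of all tested genes did) and 1 that passed lower (5.63%). They were also the only 3 of the 57 probe sets to pass with the block (5.26%, against 9.57% of all). With the replicate 3 arrays alone as a block, Pik3r3 and Eras passed (6.06%, against 6.55%), and over replicates 1 and 2 alone none did (2.82% of all tested genes). Among the kinases that give the pathway its name, Pik3ca differed by -0.19 log2 units, Pik3cb by 0.38, Akt1 by 0.25, Akt2 by 0.58 and Mtor by -0.03, and none of these 5 passed in either fit.

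The median log2 difference of the 33 genes was 0.10, against 0.00 (-0.0025) over all tested genes, and their median absolute difference was 0.34 against 0.25. Of the 33, 18 differences were above 0 (54.5%, against 49.7% of all tested genes) and 15 below, and 2 genes (6.06%) differed by at least 1 log2 unit, where 8.22% of all tested genes did. The standard errors ran from 0.22 to 0.44 with a median of 0.28. For 16 genes the 95% interval of the difference lay within 2-fold in both directions, that is between -1 and 1, and for the other 17 it reached 2-fold in at least 1 direction. Without the block, the smallest absolute difference that passed in the whole table was 1.01.

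**Figure D1:**
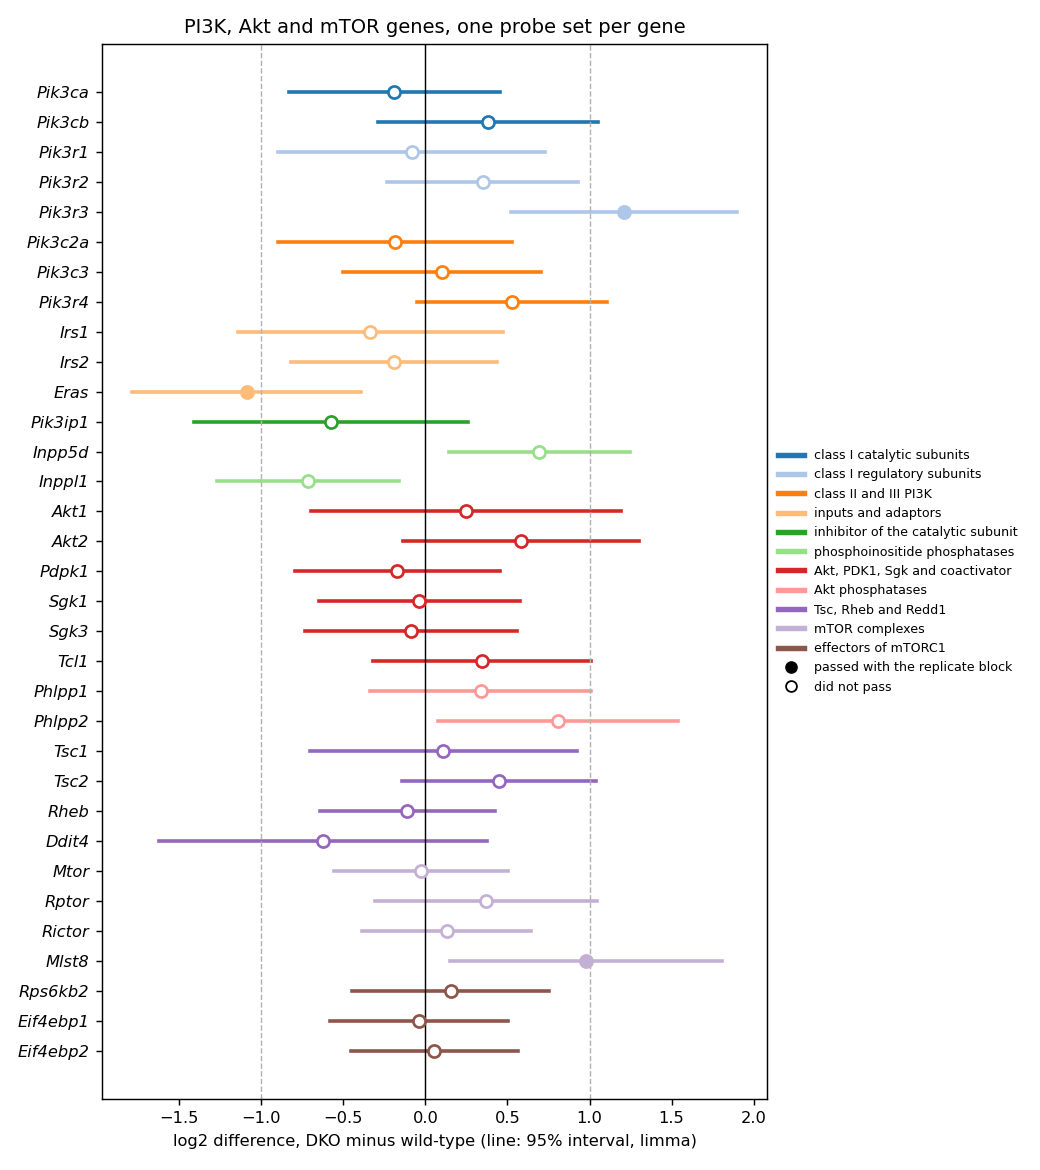
Log2 difference between DKO and wild-type cells (x axis) for the 33 tested genes of the pathway, each on its brightest tested probe set, grouped by role (colour), with the 95% interval from limma as a line. Filled circles mark Pik3r3, Eras and Mlst8, which passed with the replicate block; none passed without it, and 6 intervals (Pik3r3, Eras, Inpp5d, Inppl1, Phlpp2 and Mlst8) leave out 0.

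Some facts of the arrays bear on these values. The titles give replicate numbers 1 to 3 in both genotypes, and arrays with the same number deviated from their group means together (correlations of 0.427, 0.354 and 0.595 over all tested probe sets), so the block is given beside each result that it changes. Both replicate 3 arrays stood apart: their 9 bacterial and phage spike-in probe sets averaged log2 intensities of 10.2 and 10.5, against 1.64 to 1.85 on the other 4 arrays. The 3'-over-5' signal of 3 control transcripts, which reflects how long the RNA was, averaged 2.32, 2.44 and 1.83 log2 units on the DKO arrays and 2.30, 2.00 and 1.64 on the wild-type arrays, higher in DKO in each pair. Gsk3a had log2 intensities of 7.18, 7.08 and 6.04 on the DKO arrays and 8.65, 7.89 and 7.90 on the wild-type arrays (adjusted p = 0.0942; 0.00646 with the block), and none of the 5 tested probe sets of Gsk3b passed with or without it. The brightest of these read 10.13, 10.55 and 10.52 in DKO and 10.53, 10.60 and 10.69 in wild-type cells, a difference of -0.21 (95% interval -0.73 to 0.32). Whether these probe sets lie within the deleted exons was not known, so they check the labels only in part. All 9 embryonic stem cell markers were above the filter on all 6 arrays, while none of 8 blood markers (among them Ptprc, Spi1 and Cd79a) was bright enough to be tested, with no intensity above 17.

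The upstream sequences of the genes that passed with the block are shown because they are the ones on which the results turn. Each window holds the 250 bases before a RefSeq transcription start (GRCm38.p6), read 5′ to 3′ along the gene's strand, with every GC box (GGGCGG or its reverse complement CCGCCC) in capitals. Pik3r3 has 3 listed starts, and its first window is chr4:116221166-116221415 on the + strand. The window of Eras is chrX:7928608-7928857 on the - strand, and that of Mlst8 is chr17:24479079-24479328 on the - strand.
Pik3r3: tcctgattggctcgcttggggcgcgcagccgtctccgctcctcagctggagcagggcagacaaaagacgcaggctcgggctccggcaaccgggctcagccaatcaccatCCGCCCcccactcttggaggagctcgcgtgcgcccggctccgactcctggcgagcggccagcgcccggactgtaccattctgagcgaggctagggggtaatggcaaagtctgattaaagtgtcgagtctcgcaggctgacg
Eras: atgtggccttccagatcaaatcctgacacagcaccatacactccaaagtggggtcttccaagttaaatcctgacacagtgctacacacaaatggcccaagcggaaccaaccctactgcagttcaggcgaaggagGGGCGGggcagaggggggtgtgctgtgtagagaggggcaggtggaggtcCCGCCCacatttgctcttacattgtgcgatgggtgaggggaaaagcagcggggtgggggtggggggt
Mlst8: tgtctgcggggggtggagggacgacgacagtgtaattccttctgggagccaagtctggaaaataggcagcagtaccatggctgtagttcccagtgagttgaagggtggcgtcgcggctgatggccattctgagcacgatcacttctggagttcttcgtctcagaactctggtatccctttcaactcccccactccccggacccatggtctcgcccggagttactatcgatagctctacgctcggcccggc

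The windows differ in composition: Pik3r3 has 65.6% G and C and 23 CpG dinucleotides, Mlst8 57.6% and 15, and Eras 58% and 6, against medians of 52.4% and 6 over all 32851 windows of the RefSeq table. The GC box occurred once in the Pik3r3 window, at 2 places in the Eras window and not in that of Mlst8. It was found in 54.9% of the 51 windows of the 34 pathway genes that the table holds, and in 32.7% of all windows. Genes with several starts count more than once, and the G and C content of the 51 pathway windows together was not worked out. The letters CTTTGA (or TCAAAG), the core bound by the Tcf/Lef factors through which beta-catenin acts, were in 7.84% of the pathway windows (Akt2, Pik3cg and Sgk1) against 13.8% of all windows. The fork head letters TGTTTAC (or GTAAACA), bound by FoxO factors, were in 3.92% (Akt1 and Pik3cg) against 3.17%. Neither was in the windows printed here. A match describes the sequence only.

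Class I PI3K is a dimer of a catalytic and a regulatory subunit. The catalytic subunits Pik3ca (p110 alpha) and Pik3cb (p110 beta), which most tissues express, were both tested. Pik3ca read 10.01 ± 0.42 (SD, n = 3) in DKO and 10.20 ± 0.24 in wild-type cells, a log2 difference of -0.19 (95% interval -0.83 to 0.45, adjusted p = 0.884), and its 5 tested probe sets gave differences from -0.19 to 0.13. Pik3cb read 9.0 ± 0.42 and 8.62 ± 0.33, a difference of 0.38 (-0.29 to 1.05, adjusted p = 0.712). Pik3cd and Pik3cg, the subunits known from leukocytes, were not tested: the 6 probe sets of Pik3cd reached an intensity of at most 13 and the 2 of Pik3cg at most 4, below the filter of 16.

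Among the regulatory subunits, Pik3r3 (p55 gamma) had the largest difference of the 3 tested. Its single probe set read 7.51, 8.25 and 8.10 in DKO replicates 1 to 3 and 6.30, 6.83 and 7.10 in the wild-type replicates. The 3 DKO arrays were all above the 3 wild-type arrays, and replicate 1 was the lowest array in both genotypes. The log2 difference was 1.21 (SE 0.30, 95% interval 0.52 to 1.90). It did not pass without the block (adjusted p = 0.0803; 0.0694 to 0.246 when 1 array was left out) and passed with it (adjusted p = 0.00566). The same-numbered pairs differed by 1.20, 1.42 and 1.00. It also passed with the replicate 3 arrays as a block of their own (adjusted p = 0.0392). With the replicate block and without replicate 1 of both genotypes it did not pass (adjusted p = 0.0579), and over replicates 1 and 2 alone the unblocked difference was 1.31 (adjusted p = 0.152). In a bulk RNA measurement like this one, more or fewer cells expressing a gene and more or less RNA per cell cannot be told apart.

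Pik3r1, which encodes p85 alpha and is the regulatory subunit most tissues use, stood at 8.40 ± 0.36 in DKO and at 8.49 ± 0.66 in wild-type cells, a difference of -0.08 (-0.90 to 0.73). Its 3 tested probe sets differed by -0.22 to 0.03. Pik3r2 (p85 beta) was dim, at 4.42 ± 0.27 and 4.07 ± 0.26, with a difference of 0.35 (-0.23 to 0.93, adjusted p = 0.691). Whether Pik3r3 differed more between the genotypes than Pik3r1 or Pik3r2 was not tested.

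The other classes of PI3K act on membrane traffic. Pik3c3 (Vps34) makes the lipid that marks endosomes and autophagosomes, Pik3r4 (Vps15) is its regulatory partner, and Pik3c2a is a class II enzyme of endocytosis. Pik3c3 differed by 0.10 (-0.50 to 0.71). Pik3r4 read 8.15, 8.30 and 7.88 in DKO and 7.68, 7.25 and 7.83 in wild-type cells. Its arrays did not overlap, but those of replicate 3 were only 0.06 log2 units apart, and the difference of 0.53 (SE 0.26) did not pass (adjusted p = 0.446; 0.234 with the block). The brightest probe set of Pik3c2a differed by -0.18, with the sign turned to 0.15 without DKO replicate 3. A dim probe set of the same gene read 4.46, 4.86 and 4.46 in DKO and 4.91, 4.95 and 5.09 in wild-type cells, without overlap (difference -0.39, adjusted p = 0.584). Over all 33 genes, the genotypes separated without overlap on the brightest probe set of 5 (15.2%), where this held for 18.9% of all tested genes. Of these, 3 were higher in DKO (8.49% of all tested genes were) and 2 lower (10.4%). Over the 57 tested probe sets it held for 9 (15.8%, against 16.7% of all).

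Of the inputs to PI3K, Eras had the largest difference. Its probe set read 9.65, 10.05 and 10.74 in DKO and 11.14, 11.14 and 11.42 in wild-type cells. The wild-type arrays lay within 0.29 log2 units of each other and the DKO arrays spread over 1.09, with replicate 3 highest in both genotypes. The difference was -1.09 (SE 0.31, 95% interval -1.79 to -0.39). It did not pass without the block (adjusted p = 0.12) and passed with it (adjusted p = 0.0153), with pair differences of -1.5, -1.09 and -0.68. It passed with the replicate 3 arrays as a block (adjusted p = 0.0321) and without DKO replicate 3 (adjusted p = 0.0403), and the adjusted p rose to 0.316 over the other fits that left out 1 array. With the replicate block it did not pass without replicate 1 of both genotypes (adjusted p = 0.104). The name of this probe set ends in _x_at, the array maker's mark for probes that may match other transcripts, and no second probe set of Eras was on the array, so cross-hybridisation was not examined.

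The insulin receptor substrates Irs1 and Irs2, which link the insulin and IGF receptors to PI3K, were close to the filter: Irs1 stood at 3.90 ± 0.64 in DKO and at 4.24 ± 0.37 in wild-type cells, and Irs2 read 3.83 ± 0.22 and 4.02 ± 0.41. At such levels a whole-number intensity changes in coarse steps, and neither difference (-0.34 and -0.19) passed. Pik3ap1 (BCAP), an adaptor of B cells, was not tested; its brighter probe set reached an intensity of 47 on wild-type replicate 1 but lay under the filter on all 3 DKO arrays. Pik3ip1, a membrane protein that inhibits the catalytic subunit, was dim, at 3.79 ± 0.61 and 4.36 ± 0.49. It was lower in DKO in each pair (difference -0.57, adjusted p = 0.629; 0.156 with the block).

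The 5-phosphatases SHIP1 (Inpp5d) and SHIP2 (Inppl1) both remove a phosphate from the lipid that PI3K makes, and their differences had opposite signs. SHIP1 is best known from blood cells, and a shorter form of it is known from embryonic stem cells. Inpp5d read 8.70, 8.94 and 9.06 in DKO and 8.26, 8.42 and 7.94 in wild-type cells. Its second probe set read 4.0, 4.0 and 4.09 against 3.46, 3.32 and 3.32, and was above the filter in DKO only. The genotypes did not overlap on either probe set, which on the second was fixed by the filter. On the first the difference was 0.69 (SE 0.24, adjusted p = 0.229; 0.0897 with the block). On the second, with all 3 wild-type arrays under the filter, DKO was at least 1.02-fold higher (adjusted p = 0.188; 0.0756 with the block). Neither passed. The blood markers named above had no intensity over 17 on the same arrays.

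Inppl1 read 5.46, 5.32 and 5.39 in DKO and 6.39, 5.78 and 6.15 in wild-type cells. All 3 DKO arrays were below the wild-type ones, and the DKO arrays lay within 0.14 log2 units. The difference of -0.72 (SE 0.25, 95% interval -1.27 to -0.16) did not pass (adjusted p = 0.214; 0.064 with the block). Inpp4b, a 4-phosphatase acting one step further down, was not tested, with 2 probe sets at an intensity of at most 4.

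**Figure D2:**
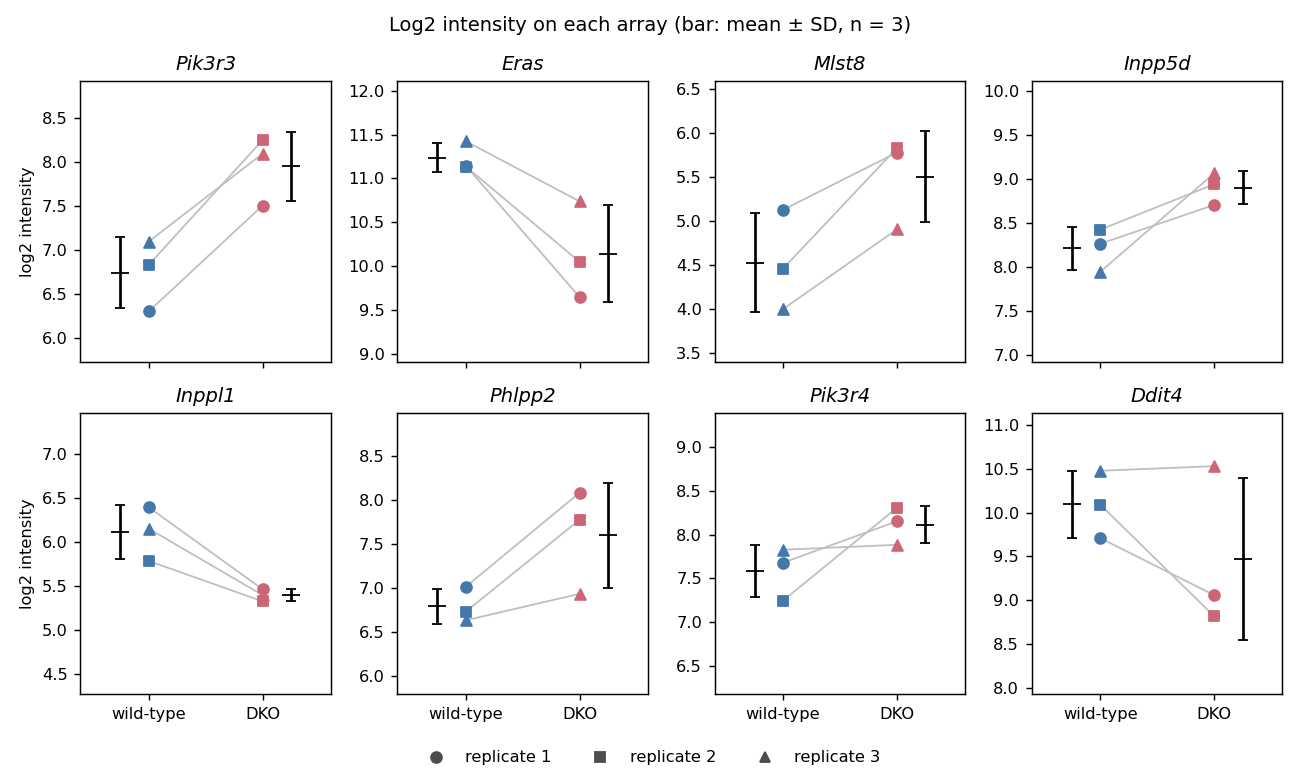
Log2 intensity (y axis) of 8 genes on each array, wild-type in blue and DKO in red, with same-numbered replicates joined and the mean ± SD (n = 3) beside them; every panel spans the same number of log2 units. Pik3r3 and Inpp5d lie higher and Eras and Inppl1 lower in DKO on every array, Mlst8 and Phlpp2 are higher within each pair although the genotypes overlap, and Ddit4 is at 10.53 and 10.47 on both replicate 3 arrays.

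Downstream of the lipid, the Akt kinases showed no difference that passed. Akt1 read 8.15, 7.35 and 7.28 in DKO and 8.26, 6.83 and 6.94 in wild-type cells, with replicate 1 high in both genotypes. The difference was 0.25 (-0.70 to 1.19, adjusted p = 0.9). Akt2, the isoform best known for insulin action, had 3 tested probe sets, all higher in DKO by 0.36 to 0.58, and on the brightest it read 6.34 ± 0.57 and 5.76 ± 0.21 (adjusted p = 0.525; 0.151 with the block). On a further probe set it read 5.43, 5.13 and 5.13 in DKO against 5.0, 4.91 and 4.70, without overlap. Pdpk1 (PDK1), the kinase that activates Akt, differed by -0.17 (-0.79 to 0.45), and by -0.53 (-1.75 to 0.69) on its second tested probe set. The kinases Sgk1 and Sgk3, relatives of Akt that PDK1 also activates, differed by -0.04 (-0.65 to 0.58) and -0.09 (-0.73 to 0.56). The 3 tested probe sets of Sgk3 differed by -0.55 to -0.09.

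Tcl1, a coactivator that binds Akt and is expressed in embryonic stem cells, read 8.87, 8.34 and 9.06 in DKO and 8.47, 8.02 and 8.74 in wild-type cells. The pair differences lay close together, at 0.40, 0.32 and 0.33, while the replicates of a genotype spread more widely. The difference of 0.35 did not pass in either fit (adjusted p = 0.751; 0.365 with the block).

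Phlpp1 and Phlpp2 remove the phosphate from the hydrophobic motif of Akt. Phlpp2 read 8.08, 7.77 and 6.93 in DKO and 7.01, 6.73 and 6.63 in wild-type cells. DKO replicate 3 fell just below wild-type replicate 1, and the pairs differed by 1.07, 1.05 and 0.30. The difference of 0.81 (SE 0.32, 95% interval 0.08 to 1.54) did not pass (adjusted p = 0.315; 0.0593 with the block). With the block and without replicate 3 of both genotypes it passed (adjusted p = 0.0216). Over the same arrays without the block it did not pass (adjusted p = 0.164). Leaving out replicate 3 was chosen after seeing the data and drops the pair that differed least, so the pass is no support for a difference. Phlpp1 differed by 0.34 (-0.34 to 1.01, adjusted p = 0.767).

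The Tsc complex and Rheb stand between Akt and mTOR. Tsc2, a known substrate of both Akt and Gsk-3, stood at 7.62 ± 0.22 in DKO and at 7.17 ± 0.32 in wild-type cells, a difference of 0.45 (-0.14 to 1.04, adjusted p = 0.564). Its partner Tsc1 differed by 0.11 on its brightest probe set, and its 3 tested probe sets disagreed in sign, from -0.54 to 0.30. The lowest of these read 4.17, 3.81 and 3.70 in DKO and 4.39, 4.58 and 4.32 in wild-type cells, without overlap (adjusted p = 0.384). Rheb, which activates mTOR complex 1, read 10.92 ± 0.26 and 11.03 ± 0.04, a difference of -0.11 (-0.64 to 0.43).

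Ddit4 (Redd1), a stress-induced gene whose product restrains mTOR complex 1, had the largest standard error of the 33 genes. It read 9.06, 8.82 and 10.53 in DKO and 9.71, 10.09 and 10.47 in wild-type cells. DKO was lower by 0.65 and 1.27 in replicates 1 and 2, while the replicate 3 arrays were level. The difference of -0.62 (SE 0.44, 95% interval -1.62 to 0.38) did not pass (adjusted p = 0.676; 0.203 with the block). With the block and without replicate 3 of both genotypes it was -0.96 and passed (adjusted p = 0.0465). Over the same arrays without the block it did not pass (adjusted p = 0.219). Here too the fit was chosen after seeing the data and drops the pair that differed least, so the pass is no support for a difference.

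The kinase Mtor forms complex 1 with Rptor (Raptor) and complex 2 with Rictor, and Mlst8 is part of both. Mlst8 read 5.78, 5.83 and 4.91 in DKO and 5.13, 4.46 and 4.0 in wild-type cells. The genotypes overlapped, since DKO replicate 3 lay below wild-type replicate 1, but DKO was higher in each pair, by 0.65, 1.37 and 0.91. The difference of 0.98 (SE 0.37, 95% interval 0.15 to 1.81) did not pass without the block (adjusted p = 0.271) and passed with it (adjusted p = 0.0233). It did not pass with the block when replicate 1 or replicate 2 of both genotypes was left out (highest adjusted p = 0.14), nor with the replicate 3 arrays as a block (adjusted p = 0.0534). A second probe set of Mlst8 was under the filter.

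The other mTOR complex genes were closer to wild-type. Mtor stood at 7.51 ± 0.10 in DKO and at 7.54 ± 0.23 in wild-type cells, a difference of -0.03 (-0.56 to 0.50, adjusted p = 0.986), and its second tested probe set differed by 0.27. The 4 tested probe sets of Rictor were all higher in DKO, by 0.13 to 0.51, and the brightest gave 0.13 (-0.38 to 0.64, adjusted p = 0.903). Rptor was dim at 5.55 ± 0.36 and 5.18 ± 0.40, a difference of 0.37 (-0.30 to 1.05).

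The effectors of mTOR complex 1 are the S6 kinases and the translation inhibitors 4E-BP. Eif4ebp1 and Eif4ebp2, which encode the latter, read 11.43 ± 0.22 and 11.40 ± 0.18 in DKO against 11.47 ± 0.18 and 11.34 ± 0.06 in wild-type cells. Their differences were -0.04 (-0.58 to 0.50) and 0.05 (-0.45 to 0.56), among the narrowest intervals of the list. Over 3 tested probe sets each, the differences ran from -0.04 to 0.35 for Eif4ebp1 and from -0.20 to 0.05 for Eif4ebp2. Rps6kb2, an S6 kinase, was near the filter and differed by 0.15 (-0.45 to 0.75). Rps6kb1 had no probe set of its own in the annotation and was not analysed here.

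Where a gene had several tested probe sets, these served as a check of its difference. Of 12 such genes, 3 were higher on every tested probe set (Inpp5d, Akt2 and Rictor), 3 were lower on every one (Pik3c2a, Pdpk1 and Sgk3) and 6 had both signs. The dim probe set of Inpp5d was tested through the DKO arrays only, so its sign is no check. Probe sets of 1 gene share the same RNA and are no replicates.

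**Figure D3:**
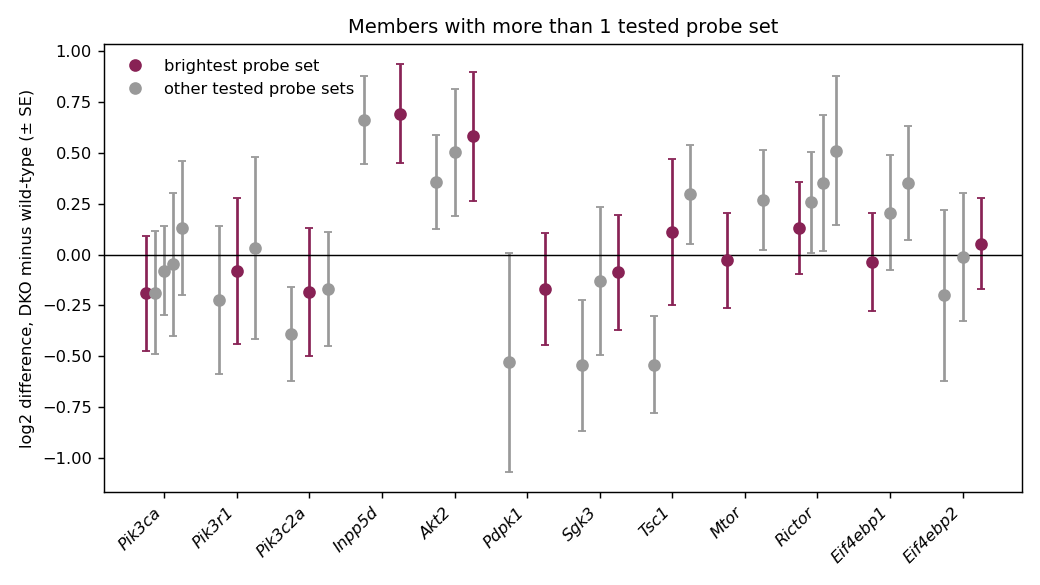
Log2 difference between DKO and wild-type cells (y axis, ± SE from limma) on every tested probe set of the 12 genes with more than 1, with the brightest probe set of each gene in purple. Inpp5d, Akt2 and Rictor lie above 0 throughout, Pik3c2a, Pdpk1 and Sgk3 below, and the 3 probe sets of Tsc1 run from -0.54 to 0.30. On the dim probe set of Inpp5d the wild-type arrays are under the filter, so its plotted difference is no exact value.

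For most of these genes the arrays differed more by replicate number than by genotype, and the median shares over all tested genes were ordered the same way. Splitting each gene's variation over the 6 arrays, the share by replicate number was larger than that by genotype in 22 of 33 genes. The median share by genotype was 22.5% and by replicate number 49.1%, against 17.5% and 49.2% over all tested genes; replicate number has 2 degrees of freedom and genotype 1. Genotype took over 50% in 7 genes: Inpp5d, Inppl1, Pik3r3, Eras, Pik3r4, Phlpp2 and Mlst8. For neither count was the share of all tested genes worked out, so neither can be read as particular to these genes. Replicate number took 90.3% for Pik3c3 and 89.3% for Akt1. Within pairs, DKO was higher in all 3 for 11 of 33 genes, where 21% of all tested genes were, and lower in all 3 for 4 genes, where 22.7% were.

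**Figure D4:**
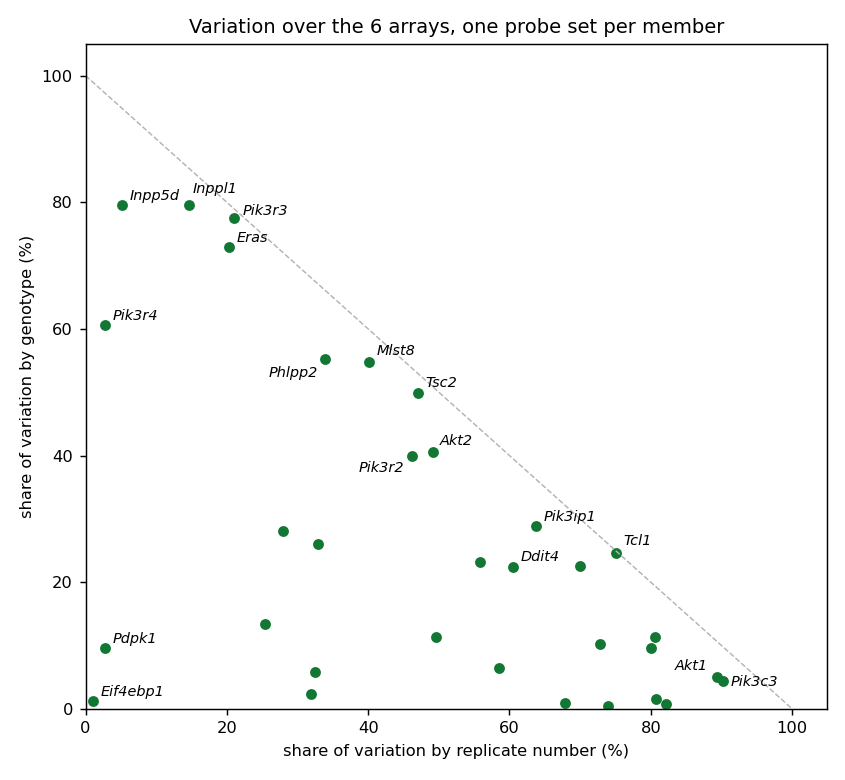
Share of the variation over the 6 arrays taken by replicate number (x axis, percent) and by genotype (y axis, percent) for the 33 tested genes; the rest, up to the dashed line, is residual. Inpp5d, Inppl1, Pik3r3 and Eras stand at the top, while Akt1 and Pik3c3 lie at the right, where replicate number takes over 85%.

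A longer list of the same pathway was read in the same fit: receptors and adaptors, Ras genes, further PI3K partners and lipid phosphatases, mTOR partners, the amino acid and energy inputs to mTOR, and effectors. Of 80 genes written, 65 were tested, 8 were too dim and 7 had no probe set of their own. None of the 65 passed (4.13% of all tested genes did), 6 had an unadjusted p under 0.05 (9.23%, against 14.7%), and the median difference was -0.05. With the replicate block 3 passed, which is 4.62% against 10.7% of all tested genes: 1 higher and 2 lower in DKO. By role, these were 1 of 13 effectors, 1 of 9 receptors and adaptors and 1 of 23 amino acid and energy inputs, with none among 2 Ras genes, 10 other phosphatases, 5 mTOR partners and 3 other PI3K partners.

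The one that passed higher was Tfeb, the transcription factor of lysosome genes that mTOR complex 1 and Gsk-3 are both known to phosphorylate. It read 4.32, 4.95 and 5.32 in DKO and 3.70, 3.70 and 3.58 in wild-type cells, all 3 of the latter under the filter. It was at least 1.82-fold higher in DKO (adjusted p = 0.0667, or 0.0145 with the block). Tfeb was tested only because all 3 DKO arrays were above the filter. Its direction and its lack of overlap were thus fixed by the filter, and its adjusted p is no support for a difference. Egfr, the epidermal growth factor receptor, read 4.32, 4.17 and 4.86 against 5.73, 5.25 and 5.21 (difference -0.95, adjusted p = 0.137; 0.0402 with the block). Sesn3, a sestrin that restrains mTOR complex 1, read 6.66, 6.69 and 7.14 against 7.21, 7.96 and 7.94 (difference -0.87, adjusted p = 0.194; 0.0374 with the block). The genotypes did not overlap in any of these 3 genes. In the longer list this held for 10 of 65 genes (15.4%), against 18.9% of all tested genes. A second, dim probe set of Sesn3 differed by -0.05 (adjusted p = 0.97), and on it the genotypes overlapped.

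Prr5l (Protor-2), a partner of mTOR complex 2, is named after its values were seen. Its brightest probe set did not pass and rested on DKO replicate 3, at 7.19 against 4.25 and 4.46 on the other DKO arrays. A second probe set read 5.13, 4.58 and 4.81 in DKO and 3.70, 3.00 and 3.70 in wild-type cells, at least 1.79-fold higher, and passed without the block (adjusted p = 0.0353; 0.0482 to 0.15 when 1 array was left out) and with it (adjusted p = 0.00301). On another DKO was at least 1.44-fold higher (adjusted p = 0.0968; 0.0144 with the block). The wild-type arrays were under or just above the filter on each of these 3 probe sets. The last 2 were tested only because the DKO arrays were above the filter. Their direction was thus fixed by the filter, and their adjusted p is no support for a difference.

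Markers of other cell types that a culture of stem cells could hold were read on the same arrays. Of 8 primitive endoderm markers, 8 were tested and none passed with or without the block. Foxa2, Sox17, Gata6 and Gata4 differed by 1.26, 1.19, 1.05 and 0.95, and within replicate 3 alone by 2.55, 3.02, 2.48 and 2.55. Pdgfra differed by 0.62, by 2.08 within replicate 3 alone and by -0.11 over replicates 1 and 2 alone. Sox7 went the other way with -0.35, by 1.34 within replicate 3 alone and by -1.2 over replicates 1 and 2 alone. Dab2 differed by -1.45, and over replicates 1 and 2 alone it passed (-2.44, adjusted p = 0.00579). The summed intensity, led by Sparc (mean log2 level 12.07 for DKO, 12.09 for wild-type), was 6973 to 9929 in DKO and 4708 to 9155 in wild-type cells, lowest on wild-type replicate 3. Of 9 fibroblast markers 4 were tested, and only Col1a1 passed with the block (difference -1.34, adjusted p = 0.00506). Col1a2 and Thy1 differed the other way, by 0.75 and 0.44, and Vim, which leads the sum, by -0.14 (adjusted p with the block = 0.0549, 0.262 and 0.776). Col3a1, Dcn, Lum, Postn and Twist2 were not above an intensity of 26, and the summed level was 4403 to 5540 in DKO and 4854 to 6074 in wild-type cells. Of 8 trophoblast markers 2 were tested, and Eomes passed with the block (difference 1.24, adjusted p = 0.00734). The other, Tfap2c, was lower in DKO in each pair and did not pass (difference -0.89, adjusted p with the block = 0.0772). It leads the summed level, which was 1289 to 3401 in DKO and 3221 to 3880 in wild-type cells, and Ascl2, Elf5, Gata3, Hand1, Krt7 and Tpbpa were not above 40. The part of these cell types, of RNA length and of the replicate 3 arrays in the differences of Pik3r3, Eras and Mlst8 was not tested.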

How the data were processed

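Total RNA was labelled as amplified cDNA (25 ng of RNA, per the labels' protocols). The deposited table holds whole-number intensity values, taken as linear from the values alone. The submitters' processing notes list limma 2.16.5, R 2.8.0, GCRMA 2.14.1 and GCOS with no step for each, and the build was not given in the sources used here. The values were converted to log2 here with no pseudocount and no further normalization. Rounding makes low values coarse, and precision is limited by the number of arrays. Gene names came from the platform annotation and, by gene identifier, RefSeq (GRCm38.p6): of 45101 probe sets, 34958 had 1 gene, 932 several and 9211 none.

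Array controls (64 probe sets) and probe sets under a log2 of 4 (intensity 16) on more than 3 of the 6 arrays were left out, and 20841 were tested. The 2 genotypes were compared by two-sided limma tests (version 3.58.1, R 4.3.3, with lmFit and eBayes). P-values were adjusted by Benjamini-Hochberg over all 20841, with a threshold of 0.05. A gene was counted on its brightest tested probe set. A genotype with all arrays under the filter has only a limit: the other's mean was set against the filter and is written "at least". The fit without the block was tested on simulated data with independent noise and planted differences larger than any pathway gene of the list had. That test does not cover the fits with a block. Arrays were compared before averaging, and at most 1.79% of tested values were equal on 2 arrays. Same-numbered arrays were taken as pairs from the correlations of their deviations alone; the meaning of a number is not in the labels, and arrays of unlike number correlated at -0.488 to 0.113. Deviations from a group mean cancel within a genotype, so the correlations of unlike numbers are not independent of those of like numbers. The main model had no replicate term, and the block was an alternative.

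Every pathway gene on the list is named. Values on every array are given for those with a probe set that passed in either fit or whose genotypes did not overlap, and for Akt1, Ddit4, Phlpp2 and Tcl1, added after their values were seen. The genes and lists were chosen with earlier results of these data known. The alternatives were the blocks, subsets of arrays, filters, a pseudocount, quantile normalization, other variance models and gene means; the replicate block with a pair left out was chosen after seeing the data.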

Additional observations from a re-analysis of the deposited data

How the results depend on the processing

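Over 618 values of the 33 genes under up to 19 alternatives, 566 kept their direction and their side of the threshold, 13 now passed and 39 had the other sign. The sign turned in 12 genes, none of which differed by more than 0.25 log2 units to begin with, and none of the turned values passed. The count of probe sets that passed was 675. With the replicate block it was 1995, with the replicate 3 arrays as a block 1117, with replicates 1 and 2 only 440, with the filter at log2 6 373 and without moderation 31; without 1 array it ran from 290 to 604, and with the block and without 1 pair from 778 to 1911 (1678 without replicate 2). No other alternative moved it by over 1.5 times. Of the pathway genes, 0 passed by limma (6 at an unadjusted p under 0.05). With the replicate block 3 passed and with the replicate 3 arrays as a block 2 (Pik3r3 and Eras). Without 1 array 0 to 1 passed, the 1 being Eras without DKO replicate 3. With the block and without 1 pair, fits chosen after seeing the data, 0 to 5 passed. None passed without replicate 1, and Pik3r3, Eras, Phlpp2, Ddit4 and Mlst8 passed without replicate 3. The share of all tested genes was not counted for these fits, so the 5 have no background to be judged by. Of the longer list, 0 passed by limma (6 at an unadjusted p under 0.05), 3 with the replicate block, 1 with the replicate 3 arrays as a block and 1 with the mean of a gene's probe sets; without 1 array 0 to 1 passed (Tfeb, without DKO replicate 1), and with the block and without 1 pair 1 to 2. The replicate block also changed the calls of Gsk3a, Col1a1, Eomes and a probe set of Prr5l, which passed only with it; it changed no other call of the pathway genes named, and in a balanced design cannot change a difference. The cause of these changes was not tested.

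The values of the genes whose sign turned follow, in log2 units with the value of all 6 arrays in brackets. Pik3r1 (-0.082) ran from -0.36 to 0.28 without 1 array and was 0.25 with the block and without replicate 2. Pik3c2a (-0.18) ran from -0.37 to 0.15 without 1 array and was 0.10 over replicates 1 and 2 and 0.10 with the block and without replicate 3. Pik3c3 (0.10) ran from -0.10 to 0.23 without 1 array. Akt1 (0.25) ran from -0.032 to 0.70 without 1 array. Pdpk1 (-0.17) ran from -0.35 to 0.011 without 1 array and was 0.13 over replicates 1 and 2 and 0.13 with the block and without replicate 3. Sgk1 (-0.036) ran from -0.17 to 0.20 without 1 array and was 0.14 with the block and without replicate 1. Sgk3 (-0.087) ran from -0.34 to 0.13 without 1 array and was 0.14 with the block and without replicate 1 and 0.0020 with the block and without replicate 2. Tsc1 (0.11) ran from -0.16 to 0.50 without 1 array and was -0.0074 with the block and without replicate 1, -0.032 with the block and without replicate 2 and -0.045 as the mean of its probe sets. Mtor (-0.027) ran from -0.16 to 0.057 without 1 array and was 0.028 over replicates 1 and 2, 0.0025 with the block and without replicate 2, 0.028 with the block and without replicate 3 and 0.12 as the mean of its probe sets. Rps6kb2 (0.15) ran from -0.020 to 0.26 without 1 array. Eif4ebp1 (-0.037) ran from -0.15 to 0.068 without 1 array and was 0.16 with the block and without replicate 1 and 0.17 as the mean of its probe sets. Eif4ebp2 (0.055) ran from -0.039 to 0.14 without 1 array and was -0.067 with the block and without replicate 2 and -0.053 as the mean of its probe sets.

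Dim genes (Irs1, Irs2, Pik3ip1, Pik3r2, Rps6kb2) are limited by rounding and background, and no genes near the filter can be called unexpressed from these values. Akt2, Inppl1, Irs1, Irs2, Mlst8, Pik3ip1, Pik3r2, Rps6kb2 and Rptor had no value with the filter at log2 6, which their probe sets did not reach on 3 arrays.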

Other observations

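Both replicate 3 arrays were above the other 4 arrays for 3 of the 33 pathway genes (9.09%), where this held for 15.7% of all tested genes. The 3 were Pik3c3, Phlpp1 and Ddit4. Both were below the other 4 arrays for 5 genes (15.2%, against 11.6%), namely Pik3r1, Pik3c2a, Akt2, Tsc1 and Rictor. In the longer list the same counts were 7 of 65 genes above (10.8%) and 6 below (9.23%). Among those above was Trib3, a pseudokinase that binds Akt, at 6.83 in DKO and 7.14 in wild-type replicate 3 against 4.70 to 5.43 on the other arrays. Trib3 was picked out after its values were seen, and it did not pass between the genotypes with or without the replicate block.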
